A study of Oryza sativa Japonica Group with 6 samples.

Results

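OsLTPL159 (LOC_Os10g36160), a rice gene of the lipid transfer protein (LTP) family, was examined here together with the loci that surround it on chromosome 10. The members were all loci with identifiers between LOC_Os10g35900 and LOC_Os10g36400 in the deposited tables, which gave 42 loci of 55986 in all. The tested plants, OEZ, were transgenic plants of the japonica cultivar Zhonghua17 in which the CaMV 35S promoter, a viral promoter active in most plant tissues, drove the OsLTPL159 coding sequence of the introgression line IL112. The control plants, ZH17, were nontransformed Zhonghua17. Both groups were early seedlings with buds of about 5 mm that had been held at 2 °C for 3 h, so no comparison with untreated seedlings of either genotype can be made. Each group had 3 replicates (n = 3), each a pool of plants, and the sources name the OEZ plants both as an overexpression line and as lines, so whether the pools came from 1 or several transformants is not clear.

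LTPs are small secreted proteins, held together by disulfide bonds, that bind lipids in a hydrophobic cavity. In plants they are known for moving lipid monomers toward the cuticle and cell wall, and members of the family respond to cold, drought and pathogens. The family is large in rice and many of its genes stand in clusters. A transgene driven by the 35S promoter is normally inserted elsewhere in the genome than the gene it copies, and the insertion site in OEZ is not given in the sources used here. The comparison asked whether the loci beside the native gene moved when the transcript of that gene was raised.

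The study's primers are shown because they define the introduced sequence and the stretch that the study measured by RT-qPCR. No RT-qPCR value is used here, and all levels below come from RNA sequencing. The first pair amplified the insert of the overexpression vector, from a few bases before the start codon to a point beyond the stop codon. The second pair was designed for RT-qPCR of the gene. The capitals mark the ATG start codon in the forward primer of the first pair, and both primers of that pair begin with added bases that carry restriction sites.
Overexpression forward: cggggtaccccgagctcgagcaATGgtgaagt
Overexpression reverse: cgagctcgccaaaacgaatgtacacacagc
RT-qPCR forward: tgcgtgagcccgatcttc
RT-qPCR reverse: ttctgctgtgcgcgtaggt
Expression was deposited as 1 FPKM value (fragments counted per length of transcript and per size of library) per locus and sample, so transcripts of the transgene and of the native gene are summed at LOC_Os10g36160 and cannot be told apart. The sequences of the neighbouring loci were not used here, and reads shared with similar copies of the family could have been divided among them during counting.

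OsLTPL159 reached 2506, 2539.9 and 2502 FPKM in the 3 OEZ pools, against 141, 138 and 131 FPKM in the 3 ZH17 pools. All 3 OEZ pools lay far above all 3 ZH17 pools and the groups did not overlap. The mean was 2516 ± 20.7 FPKM in OEZ and 137 ± 4.98 FPKM in ZH17 (SD, n = 3 each). On the log2(FPKM + 0.1) scale the difference was 4.20 (SE 0.05, 95% interval 4.08 to 4.32), or 18.4-fold, with an adjusted p of 1.4e-07 in limma with Benjamini-Hochberg adjustment over all tested loci. An exact permutation test over 3 pools against 3 cannot give a p below 0.1.

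The replicate spread of OsLTPL159 was small, with a coefficient of variation of 0.823% in OEZ and 3.64% in ZH17. The median over all tested loci was 8.21% in OEZ and 10.2% in ZH17. By level, the gene ranked 15, 12 and 16 among all loci in the OEZ pools, against 962, 986 and 1035 in the ZH17 pools. It took 0.278%, 0.296% and 0.277% of the summed FPKM of the OEZ pools, against 0.0164%, 0.0162% and 0.0152% in the ZH17 pools. In absolute terms its gain of 2379 FPKM ranked 4 among all loci. By log2 fold change it ranked 18 of the 357 loci called higher in OEZ. The 17 loci above it by that measure were all below 1 FPKM on average in ZH17, the highest of them at 0.451 FPKM, and none averaged more than 87.1 FPKM in OEZ.

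Of the 42 members, 32 were above 0 FPKM in at least 1 sample and 10 were listed at 0 in all 6. A member was tested when it averaged at least 0.5 FPKM over the 6 samples, which 27 members did, OsLTPL159 among them. A locus was called when it changed by 1.5-fold or more with an adjusted p below 0.05 in the fit over 22841 loci. The call rule took 1 of the 27 tested members, OsLTPL159, which rose. Over all tested loci 2.98% were called in either direction, 1.56% higher and 1.42% lower in OEZ. None of the other 26 tested members was called by limma, and 5 of them had an unadjusted p under 0.05 (19.2%, against 23.2% of all tested loci). LOC_Os10g35950 and LOC_Os10g36180, which were not called here, are both listed in the study's table of changed genes, which was made from the same samples with another test. Of the neighbours, LOC_Os10g35950 and LOC_Os10g36180 alone had a description in the sources used here, and neither is described as an LTP gene. The other neighbours had none, so whether any of them is an LTP gene could not be read there. All neighbours are therefore called by their locus identifiers.

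**Figure D1:**
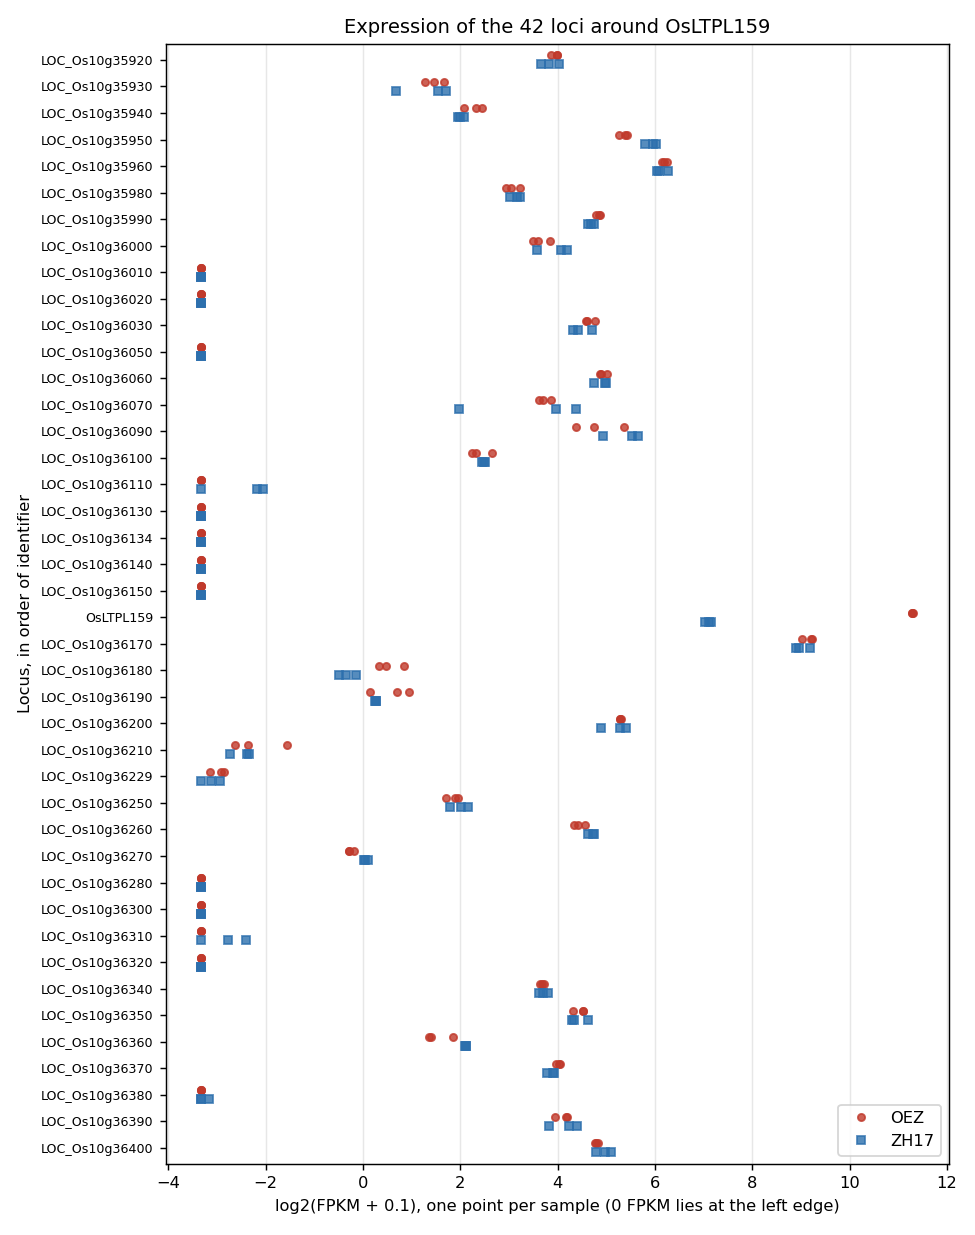
Expression of the 42 members in order of identifier, as log2(FPKM + 0.1), with 1 point per pool (circles OEZ, squares ZH17). OsLTPL159 is the only locus at which the OEZ points lie several log2 units to the right of the ZH17 points, and the loci directly before it sit at the left edge, where 0 FPKM falls.

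The 26 tested neighbours differed between the groups by a median of 0.04 on the log2(FPKM + 0.1) scale, with quartiles of -0.15 and 0.15. The same quantity over all tested loci had a median of 0.02 and quartiles of -0.15 and 0.17. The neighbours were spread over both directions, 14 with a positive and 12 with a negative difference, from -0.57 to 0.86. The median size of the difference, ignoring its sign, was 0.16 in the neighbours and 0.16 over all tested loci. Both the centre and the size of the neighbours' differences were thus close to those of the genome at large, while OsLTPL159 lay far outside them.

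Sample by sample, the median distance of the tested neighbours from their own ZH17 mean was 0.08, 0.02 and -0.01 in the OEZ pools, against -0.00, -0.00 and 0.05 in the ZH17 pools (log2 scale). The 41 neighbours together summed to 1057, 1036 and 976 FPKM in the OEZ pools, against 991, 936 and 1088 FPKM in the ZH17 pools. These ranges overlapped in both directions. OsLTPL159 therefore took 70.3%, 71.0% and 71.9% of the summed FPKM of the 42 members in OEZ, against 12.4%, 12.9% and 10.8% in ZH17.

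The precision differed among the neighbours. For 17 of the 26 the 95% interval of the fold change lay within 1.5-fold in both directions (65.4%, against 61.8% of all tested loci). For 24 of the 26 the upper bound lay below a doubling, against 20728 of all 22841 tested loci. The exceptions were LOC_Os10g36070, with the highest upper bound of any neighbour at 1.62 on the log2 scale, and LOC_Os10g36180, with an upper bound of 1.44. On the other side, the lower bounds of LOC_Os10g36090 (-1.19) and LOC_Os10g36070 (-1.05) lay past a halving. No neighbour's interval reached the lower bound of OsLTPL159.

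**Figure D2:**
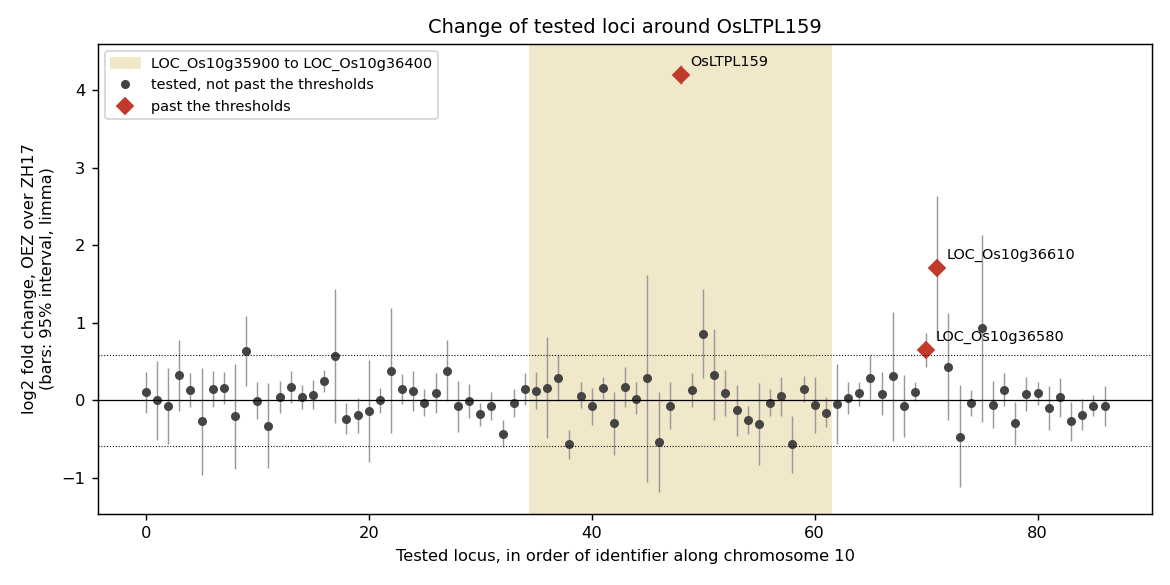
log2 fold change of OEZ over ZH17, with the 95% interval from limma, for the tested members (shaded) and the tested loci on either side, in order of identifier. Dotted lines mark the 1.5-fold threshold and diamonds the called loci: OsLTPL159 stands at 4.20 while its neighbours lie between -0.57 and 0.86.

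The loci closest to OsLTPL159 were uneven in level. LOC_Os10g36130, LOC_Os10g36134, LOC_Os10g36140 and LOC_Os10g36150, the 4 loci that directly precede it, were listed at 0 FPKM in all 6 pools. The next locus before them, LOC_Os10g36110, was listed at 0 in the 3 OEZ pools, against 0.139, 0 and 0.120 FPKM in the ZH17 pools, and was too low to test. No fold is given for these loci, since a listed 0 may also be a value that could not be estimated.

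LOC_Os10g36170, the first locus after OsLTPL159, was the most highly expressed neighbour. It had 601, 587 and 517 FPKM in the OEZ pools, against 498, 478 and 582 FPKM in the ZH17 pools. The highest ZH17 pool lay within the OEZ range, and the groups overlapped. Its mean was 568 ± 45.1 FPKM in OEZ and 519 ± 54.9 FPKM in ZH17 (SD, n = 3 each), a log2 difference of 0.13 (95% interval -0.09 to 0.35) with an adjusted p of 0.45 in limma. The order of the pair by level turned round between the groups, with transcripts of the transgene and the native gene summed at OsLTPL159. OsLTPL159 stood at 4.17, 4.33 and 4.84 times the level of LOC_Os10g36170 in OEZ, against 0.283, 0.289 and 0.225 times in ZH17. FPKM is scaled by the length of the annotated transcript, which the transcript of the transgene need not share. The ratios are therefore only a rough comparison of levels.

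LOC_Os10g36180, which the study's gene table describes only as an expressed protein, showed the largest positive difference among the neighbours. It had 1.69, 1.28 and 1.15 FPKM in the OEZ pools, against 0.613, 0.688 and 0.809 FPKM in the ZH17 pools. Every OEZ pool lay above every ZH17 pool, at a level near 1 FPKM in both groups. The log2 difference was 0.86 (SE 0.24, 95% interval 0.29 to 1.44), or 1.82-fold, and its adjusted p of 0.091 in limma did not pass the threshold. It was the only neighbour with a fold change of at least 1.5 (3.85% of the 26, against 10.4% of all tested loci).

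The next loci overlapped between the groups. LOC_Os10g36190 had 1.82, 1.52 and 1.01 FPKM in the OEZ pools, against 1.11, 1.11 and 1.09 FPKM in the ZH17 pools, a log2 difference of 0.33 with an adjusted p of 0.46 in limma. LOC_Os10g36200 had 39.0, 39.2 and 38.8 FPKM in the OEZ pools, against 29.6, 38.9 and 42.4 FPKM in the ZH17 pools. Its OEZ pools were nearly equal while its ZH17 pools spread on both sides of them, and the log2 difference was 0.09. LOC_Os10g36210 was too low to test, at 0.0606, 0.0956 and 0.237 FPKM in the OEZ pools, against 0.0975, 0.0908 and 0.0504 FPKM in the ZH17 pools.

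On the other side of the loci listed at 0, LOC_Os10g36100 had 6.20, 4.63 and 4.88 FPKM in the OEZ pools, against 5.47, 5.60 and 5.33 FPKM in the ZH17 pools, and the groups overlapped. LOC_Os10g36090 had 26.9, 20.6 and 41.0 FPKM in the OEZ pools, against 50.2, 30.5 and 45.9 FPKM in the ZH17 pools. Its pools were spread widely in both groups and overlapped, with a log2 difference of -0.54 (SE 0.28, 95% interval -1.19 to 0.11) and an adjusted p of 0.29 in limma. LOC_Os10g36070 had 12.9, 14.4 and 12.2 FPKM in the OEZ pools, against 20.7, 3.81 and 15.6 FPKM in the ZH17 pools. A single low pool, ZH17 replicate 2, set its direction, since the log2 difference was 0.29 with that pool and -0.45 without it. LOC_Os10g36060 had 32.4, 29.4 and 29.2 FPKM in the OEZ pools, against 26.7, 31.1 and 31.9 FPKM in the ZH17 pools, and the groups overlapped.

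The 5 tested loci before OsLTPL159 and the 5 after it had a median log2 difference of 0.11, against -0.04 in the other 16 tested neighbours. Of the 10 closest loci, 0 were called by limma, against 2.98% of all tested loci. An unadjusted p under 0.05 was found for 1 of the 10, against 23.2% of all tested loci. With so few loci, a count of 0 calls does not set them apart from the genome at large. By side, the 13 tested neighbours before OsLTPL159 had a median of 0.06 and the 13 after it a median of -0.03. No trend with closeness to OsLTPL159 was tested, because the identifiers give the order of the loci and not their distance.

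Separation of the groups without overlap was seen for 8 of the 26 tested neighbours. OEZ lay above ZH17 in every pool for 4 of them (15.4%, against 16.0% of all tested loci) and below in every pool for the other 4 (15.4%, against 13.2%). The 4 above were LOC_Os10g36180, LOC_Os10g35940, LOC_Os10g35990 and LOC_Os10g36370, of which the last 3 were named after their values were seen and had log2 differences of 0.28, 0.16 and 0.14. The 4 below were LOC_Os10g35950, LOC_Os10g36360, LOC_Os10g36260 and LOC_Os10g36270, of which the last 2 were named in the same way and had log2 differences of -0.25 and -0.31.

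LOC_Os10g35950, described in the study's gene table as a putative member of the transferase family, had the lowest adjusted p among the neighbours. It had 38.2, 42.8 and 41.5 FPKM in the OEZ pools, against 64.6, 55.1 and 62.5 FPKM in the ZH17 pools. Every OEZ pool was below every ZH17 pool, with means of 40.8 ± 2.38 FPKM in OEZ and 60.7 ± 4.98 FPKM in ZH17 (SD, n = 3 each). The log2 difference was -0.57 (SE 0.08, 95% interval -0.76 to -0.38) with an adjusted p of 0.011 in limma, and it stopped just short of the fold change threshold, which is 0.585 on the log2 scale. Single pools moved it across either threshold. Without OEZ replicate 2 the difference was -0.60 (limma adjusted p = 0.041) and without ZH17 replicate 2 it was -0.64 (limma adjusted p = 0.022), and in both cases the locus was called lower in OEZ. Without OEZ replicate 1 (-0.52, limma adjusted p = 0.053) or OEZ replicate 3 (-0.58, limma adjusted p = 0.061) the adjusted p no longer passed.

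LOC_Os10g36360 lay as far below on the log2 scale, at a lower level. It had 2.46, 3.50 and 2.54 FPKM in the OEZ pools, against 4.26, 4.22 and 4.15 FPKM in the ZH17 pools. The ZH17 pools were close together and all above the OEZ pools, and the log2 difference of -0.57 (SE 0.16, 95% interval -0.94 to -0.21) had an adjusted p of 0.082 in limma. The largest positive and the largest negative differences among the neighbours thus stood at LOC_Os10g36180, LOC_Os10g35950 and LOC_Os10g36360, which are not next to each other.

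**Figure D3:**
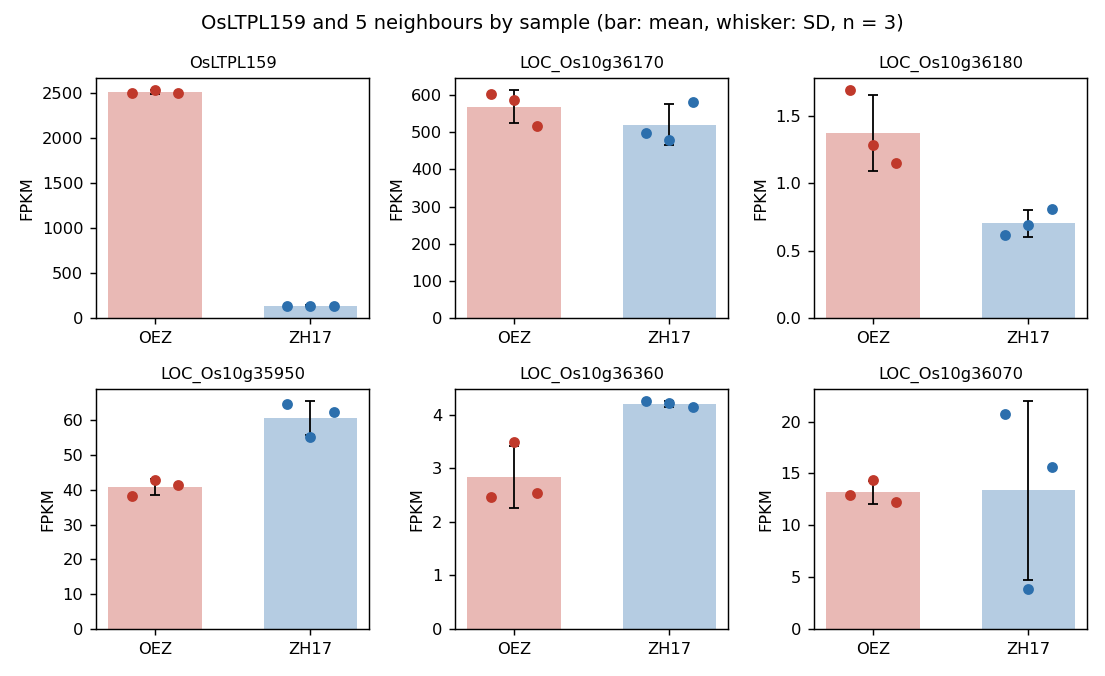
FPKM of OsLTPL159 and 5 neighbours by pool, with OEZ at the left and ZH17 at the right of each panel (bars, mean; whiskers, SD; n = 3 each; the axes differ between panels). OsLTPL159 averaged 2516 FPKM in OEZ and 137 FPKM in ZH17, LOC_Os10g36170 overlapped between the groups, and LOC_Os10g36070 had 1 low ZH17 pool at 3.81 FPKM.

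The first and second places by level were exchanged between the groups, and the next places after them were held by LOC_Os10g35960 and LOC_Os10g35950 in both. In OEZ the highest means were those of OsLTPL159, LOC_Os10g36170, LOC_Os10g35960 at 73.2 FPKM, LOC_Os10g35950 at 40.8 FPKM and LOC_Os10g36200 at 39.0 FPKM. In ZH17 the order was LOC_Os10g36170, OsLTPL159, LOC_Os10g35960 at 70.2 FPKM, LOC_Os10g35950 at 60.7 FPKM and LOC_Os10g36090 at 42.2 FPKM. LOC_Os10g35960 itself had 76.1, 72.8 and 70.7 FPKM in the OEZ pools, against 66.2, 67.7 and 76.6 FPKM in the ZH17 pools, and overlapped. In OEZ, LOC_Os10g35950 and LOC_Os10g36200 were neighbours in this order whose pools overlapped, with LOC_Os10g35950 at 38.2 FPKM in its lowest pool and LOC_Os10g36200 at 39.2 FPKM in its highest. In ZH17 no pool of LOC_Os10g35950 was as low as the highest pool of LOC_Os10g36090, at 50.2 FPKM.

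By mean level, 2 members stood at 100 FPKM or more, 16 between 10 and 100 FPKM and 8 between 1 and 10 FPKM in OEZ, and the same classes held 2, 16 and 7 members in ZH17. The 5 members that were above 0 in a sample but too low to test reached at most 0.237 FPKM in any pool. LOC_Os10g36310 was listed at 0 in the 3 OEZ pools, against 0.0471, 0.0883 and 0 FPKM in the ZH17 pools, and LOC_Os10g36380 was above 0 in ZH17 replicate 3 alone, at 0.0112 FPKM. LOC_Os10g36229 had 0.0381, 0.0321 and 0.0124 FPKM in the OEZ pools, against 0, 0.0304 and 0.0141 FPKM in the ZH17 pools. The other 6 loci listed at 0 in all pools, apart from the 4 directly before OsLTPL159, were LOC_Os10g36010, LOC_Os10g36020, LOC_Os10g36050, LOC_Os10g36280, LOC_Os10g36300 and LOC_Os10g36320.

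At the ends of the interval the values overlapped between the groups. LOC_Os10g35920, the first tested member, had 14.5, 15.8 and 15.8 FPKM in the OEZ pools, against 12.5, 14.0 and 16.1 FPKM in the ZH17 pools. LOC_Os10g36400, the last member, had 27.5, 28.4 and 27.0 FPKM in the OEZ pools, against 34.0, 31.3 and 27.6 FPKM in the ZH17 pools. Just outside, LOC_Os10g35870 had a log2 difference of 0.15 and LOC_Os10g36420 one of -0.05, neither past the threshold in limma (adjusted p = 0.35 for LOC_Os10g35870).

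The flanks served as a comparison for the neighbours. Of the 48 loci from LOC_Os10g35390 to LOC_Os10g35890, 35 were tested and 0 were called by limma, with 5 at an unadjusted p under 0.05. Of the 42 loci from LOC_Os10g36410 to LOC_Os10g36900, 25 were tested and 2 were called, both higher in OEZ. For comparison, 2.98% of all tested loci were called (1.56% higher in OEZ), and 23.2% had an unadjusted p under 0.05. Whether the flanks differ from these shares was not tested. The median log2 difference was 0.04 in each flank, the same as in the neighbours. Chromosome 10 without the members, the flanks included, had 32 called loci of 1173 tested (2.73%), 16 in each direction, with a median of 0.01.

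The called flank loci were LOC_Os10g36580 and LOC_Os10g36610, which stand near each other beyond the last member. LOC_Os10g36580 had 78.2, 77.0 and 74.1 FPKM in the OEZ pools, against 55.9, 47.1 and 43.7 FPKM in the ZH17 pools (log2 difference 0.65, limma adjusted p = 0.012). LOC_Os10g36610 had 108, 109 and 154 FPKM in the OEZ pools, against 64.3, 39.7 and 20.1 FPKM in the ZH17 pools (log2 difference 1.71, 95% interval 0.80 to 2.63). Its limma adjusted p of 0.050 lay at the threshold. Both were higher in every OEZ pool than in any ZH17 pool. No flank locus was called when any 1 of the OEZ replicates or ZH17 replicate 2 was left out, and 3 were called without ZH17 replicate 3.

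The other LTP genes were read from the study's own table of changed genes, in which 21 genes carry an LTP description, OsLTPL159 included. The study chose that table on these samples, so the counts are no independent evidence of a family change. All 21 were tested and 12 passed the thresholds, 7 higher and 5 lower in OEZ. Without OsLTPL159 the counts were 6 higher and 5 lower of 20, with a median log2 difference of -0.27. Without OEZ replicate 3, 6 of the 21 were called. Called LTP genes elsewhere in the genome thus differed in both directions, by -1.48 to 1.79 on the log2 scale, against 4.20 for OsLTPL159. The lowest fitted value of the list was that of LTPL24 (LOC_Os08g03690), which was not called and had 0, 57.7 and 0.290 FPKM in the OEZ pools, against 24.8, 80.9 and 54.4 FPKM in the ZH17 pools.

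LTPL142 (LOC_Os10g40470), which lies on the same chromosome outside the members, had 33.2, 33.8 and 35.3 FPKM in the OEZ pools, against 16.9, 17.2 and 12.4 FPKM in the ZH17 pools, and rose by 1.15 on the log2 scale (limma adjusted p = 0.0055). LTPL47 (LOC_Os01g42210) had 1.79, 3.80 and 1.28 FPKM in the OEZ pools, against 0.558, 0.536 and 0.482 FPKM in the ZH17 pools (log2 difference 1.79, limma adjusted p = 0.044). All OEZ pools of both genes were above the ZH17 pools, though the call of LTPL47 was lost when any 1 of the 6 pools was left out (limma adjusted p between 0.064 and 0.14).

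Among the LTP genes that fell, LTPL133 (LOC_Os10g20830) had 3.56, 2.53 and 3.20 FPKM in the OEZ pools, against 7.78, 8.62 and 9.92 FPKM in the ZH17 pools (log2 difference -1.48, limma adjusted p = 0.0043). LTPL124 (LOC_Os04g52260) had 120, 129 and 94.3 FPKM in the OEZ pools, against 238, 236 and 248 FPKM in the ZH17 pools (log2 difference -1.09, limma adjusted p = 0.0040). LTPL102 (LOC_Os04g33920) had 3.45, 2.31 and 2.59 FPKM in the OEZ pools, against 4.87, 4.86 and 6.12 FPKM in the ZH17 pools (log2 difference -0.91, limma adjusted p = 0.033). The call of LTPL102 was lost without OEZ replicate 2 or 3 or any 1 of the ZH17 replicates. In each of these genes every OEZ pool was below every ZH17 pool.

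**Figure D4:**
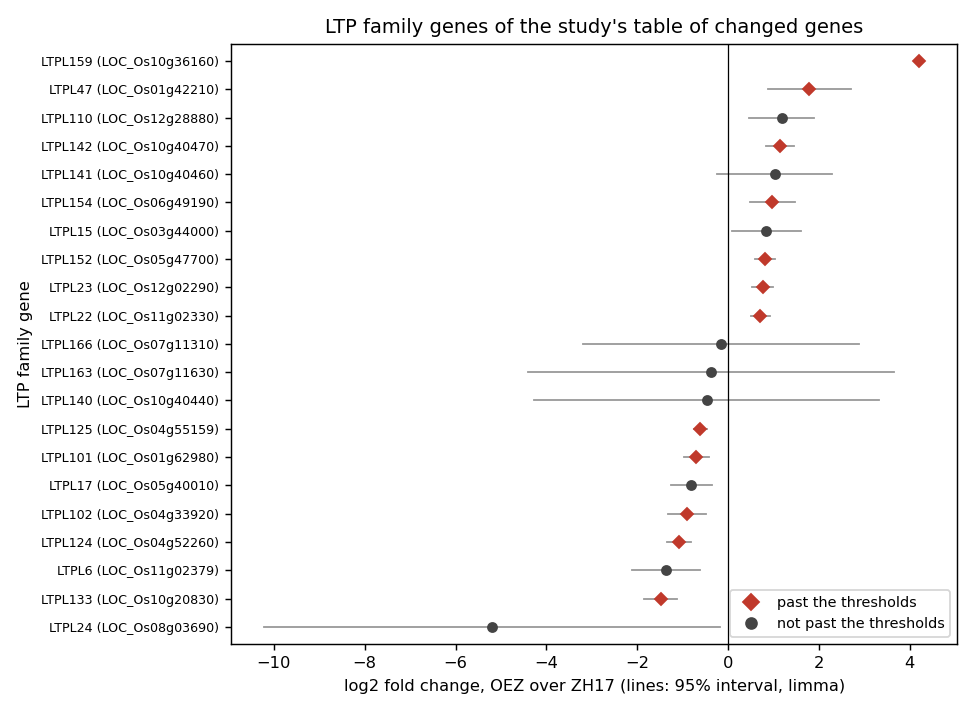
log2 fold change of OEZ over ZH17 with the 95% interval from limma for the 21 LTP genes of the study's table of changed genes (diamonds, past the thresholds; circles, not). OsLTPL159 stands apart at 4.20, with 6 other genes past the thresholds to the right of 0 and 5 to the left.

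The pools differed in tissue markers, whose part in the values above was not tested. In bulk samples fewer cells of a type and less RNA per cell cannot be told apart. The summed level of 6 grain loci was 2.84, 167 and 2.94 FPKM in the OEZ pools, against 47.3, 141 and 97.5 FPKM in the ZH17 pools. LOC_Os02g52710 made up most of that sum in OEZ replicate 2 (127 FPKM) and in the ZH17 pools (42.6, 123 and 81.8 FPKM). LOC_Os08g36910 did not set OEZ replicate 2 apart (0.981, 0.653 and 0.650 FPKM in the OEZ pools). In addition, 1 of the 6, LOC_Os09g28400, was listed at 0 in 5 of the 6 pools. The summed level of 5 green shoot loci was 3453 to 4311 FPKM in OEZ, against 6117 to 6651 FPKM in ZH17. LOC_Os12g19470 in that list overlapped between the groups, at 201, 232 and 225 FPKM in OEZ, against 219.9, 261 and 289 FPKM in ZH17. The other loci of the list did not overlap. Among them LOC_Os01g52240 is described in the study's gene table as a starch synthase. The 2 root loci summed to 185 to 189.7 FPKM in OEZ, against 143 to 165 FPKM in ZH17, and every green shoot and root locus was above 0 in every pool. OEZ replicate 2 stood apart from the other OEZ pools in the grain sum. OsLTPL159 and LOC_Os10g35950 were the members called without OEZ replicate 2, and the same members were called without ZH17 replicate 2. Between 27083 and 27345 loci per pool were above 0, and the summed FPKM per pool lay between 856329 and 902931.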

How the data were processed

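RNA of 3 OEZ and 3 ZH17 pools was sequenced as paired-end reads, mapped by the authors with TopHat2 to the rice reference IRGSP 1.0 with MSU locus identifiers, and deposited as FPKM per locus from Cuffdiff. Tool versions and the scaling between libraries are not given in the sources used here. The FPKM values carry no read counts, so counting intervals are not given. The sources call the pools biological replicates without describing separate cultures, so the p-values measure the spread between these pools.

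Groups came from the sample labels. The deposited values were put on a log2(FPKM + 0.1) scale for every locus that averaged 0.5 FPKM or more across the 6 pools. This scale understates the change of low loci. The difference of OEZ from ZH17 was fitted with limma 3.58.1 in R 4.3.3, using a trended prior variance (empirical Bayes) and Benjamini-Hochberg adjustment over all tested loci. Calls needed a change of 1.5-fold or more and an adjusted p below 0.05. The fit was tested on simulated data. Exact permutation tests and summaries used Python 3.11.15, numpy 2.4.6, pandas 2.3.3 and scipy 1.17.1.

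Members, lists and rules were chosen with earlier results of these data known. The loci named were OsLTPL159, called members, members in the study's table of changed genes, the 5 loci above 0 on each side of OsLTPL159, the 5 most expressed neighbours in ZH17, the 3 largest rises and falls, members separated by at least 1.5-fold, the first and last tested members, the loci next outside, and the 3 largest called rises and falls of the LTP list. Alternatives covered the pseudocount, the filter, the scaling, the variance trend, a replicate block, each replicate left out and the fold change criterion. Gene descriptions came from the study's table of changed genes. Genome coordinates and gene sequences were not analysed here.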

Additional observations from a re-analysis of the deposited data

How the results depend on the processing

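OsLTPL159 was called in each of the 15 alternative fits, at 4.17 to 4.22 on the log2 scale with an adjusted p of 9.8e-08 to 0.00015 in limma. Of the members, 1 was called with no change of setting, 1 to 2 with each replicate left out, and 2 with no criterion on fold change, the added locus always being LOC_Os10g35950. The median log2 difference of the neighbours was -0.04 to 0.10 with each replicate left out. Over all loci, 681 were called, against 272 to 945 with each replicate left out, 1371 with no criterion on fold change and 290 at a fold change of at least 2. Of the 2 flank calls, 1 was left with a pseudocount of 1, no filter, median-ratio scaling, quantile normalization, no variance trend, a replicate block or a 2-fold criterion, and 0 to 3 with each replicate left out. The LTP list had 12 calls, 6 to 11 with each replicate left out and 5 at a fold change of at least 2. Changes of sign with each replicate left out were read only for the tested loci named by the rules above, not for every neighbour. Among those named, the difference changed sign in LOC_Os10g36060 (-0.05 to 0.07), LOC_Os10g36070 (-0.45 to 0.76), LOC_Os10g36100 (-0.20 to 0.01), LOC_Os10g36200 (-0.06 to 0.20) and LOC_Os10g36420 (-0.19 to 0.10). None of these was called. Same-numbered pools did not deviate together (Pearson r across loci of 0.02, 0.03 and -0.06). No pairing by number was thus seen across all tested loci, and a pairing limited to few loci was not tested. With the replicate block 321 loci were called, 1 of them a member, OsLTPL159 (limma adjusted p = 0.00015). In that fit LOC_Os10g35950 had an adjusted p of 0.070 in limma, and the LTP list had 8 calls. The causes of these shifts were not tested. FPKM without counts limits what can be said of loci near 0.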
